A study of Homo sapiens with 6 samples.

Results

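Knockdown of the transcription factor ETV1 was examined within A375, a human melanoma cell line that carries an activating BRAF mutation. The 3 A375 libraries, out of 6 in the series, were taken by their cell line and hairpin labels. A library with a scrambled control hairpin was compared with a library for each of 2 hairpins against ETV1, ETV1-sh1 (B11TRCN0000013923) and ETV1-sh2 (TRCN0000013925). RNA was taken 4 days after viral infection of cells kept in 10% FBS. The other 3 libraries, from the melanoma line Colo800 with the same hairpins, served as a final check. The treatment labels also list a drug for each hairpin: DMSO for ETV1-sh1, trametinib at 5 nM for ETV1-sh2 and vemurafinib (so spelled) at 1 uM for the scrambled hairpin. The protocol text speaks of siRNA for 48 h and drug for 8 h, whereas the series design names shRNA viruses and no drug. If the drug labels hold, hairpin and drug cannot be told apart in any comparison given here. The design speaks of duplicate infections, but each condition has 1 column of values, and the sources used here do not say whether that column pools duplicates. All 3 A375 conditions share the line, the viral delivery and the serum, and no library of uninfected cells was analysed here.

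ETV1 belongs to the PEA3 subfamily of ETS factors, with ETV4 and ETV5, which bind DNA around a GGAA core. In melanoma and other tumours with an active RAS, RAF, MEK and ERK pathway, ERK signalling keeps the PEA3 factors abundant, and they act on genes of growth, invasion and feedback control. Metalloproteinases and cyclin D1 are among the well-studied ETS targets.

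Expression was given as FPKM, fragment counts scaled to transcript length and library size, and compared as differences of log2(FPKM + 1) from the scrambled library, a scale on which the change of low genes is understated. Of 17468 genes in the table, 11015 had a mean of at least 1 FPKM over the 3 A375 libraries and were compared. Each condition had 1 library, so no difference within A375 has a replicate check or a test. A gene was counted as lower or higher when its difference was at least 2-fold, that is 1 on the log2 scale. The number of reads is unknown. The steps between low FPKM values put ETV1-sh1 at 1.43 times and ETV1-sh2 at 2.10 times the depth of the scrambled library, from the commonest ratio, which 8.77% and 6.53% of the low genes compared showed. Between 10836 and 11013 genes per library reached 1 FPKM. Over all 11015 genes the differences had a median of -0.02 and an SD of 0.54 for ETV1-sh1, and a median of 0.05 and an SD of 0.77 for ETV1-sh2.

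ETV1 itself stood at 82.8 FPKM in the scrambled library, 34.6 FPKM in ETV1-sh1 and 3.46 FPKM in ETV1-sh2. The library labelled ETV1-sh1 thus kept 41.8% and the library labelled ETV1-sh2 4.18% of the control level, in the direction both labels give. The PEA3 relatives differed between the hairpins. ETV4 read 84.7, 114 and 40.8 FPKM in the scrambled, ETV1-sh1 and ETV1-sh2 libraries. ETV5 read 70.3, 24.5 and 55.7 FPKM in the same order, so that its low library was ETV1-sh1 and that of ETV4 was ETV1-sh2.

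The labelled cell type was checked on markers of the melanocyte lineage, of which 13 passed the level filter. SOX10, the neural crest and melanocyte transcription factor, stood at 556, 353 and 410 FPKM, and MITF, the master regulator of pigment cells, at 12.6, 8.61 and 10.5 FPKM. The pigment genes MLANA, TYR, TYRP1 and DCT were under 1 FPKM in all 3 libraries, and KIT was listed at 0 in the scrambled and ETV1-sh2 libraries. The libraries thus had the lineage factors SOX10 and MITF, while the pigment markers were at or near the floor. PMEL and MC1R were not analysed here.

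With ETV1-sh1, 436 genes were at least 2-fold lower (3.96% of those compared) and 312 were higher (2.83%). With ETV1-sh2, the deeper knockdown, 927 were lower (8.42%) and 801 were higher (7.27%). Both hairpins together had 183 genes lower (1.66%) and 106 higher (0.962%). These shared counts rest on the same scrambled library, so an error in that library alone would appear in both. Rescaling FPKM to TPM gave every library the same sum, and 11521 genes then passed the level filter. The median difference of all genes moved to 0.04 and 0.16, and the balance of calls moved too. The share of lower genes among the calls went from 53.6% to 42.7% for ETV1-sh2 and from 63.3% to 49.9% for both hairpins. For both hairpins it was 63.2% after centring on the median gene, and 51.1% when 0.1 instead of 1 was added to FPKM. The genes lower with both hairpins had a median control level of 22.6 FPKM and those higher a median of 6.57 FPKM, beside 15.9 FPKM for all genes compared. At the edge of the rule, SERPINA3 (-1.00004 and -1.73) was inside and IER5L (-0.9999 and -1.88) just outside on the lower side. On the higher side NBL1 (1.38 and 1.00) was inside and SMPD1 (0.99 and 2.12) outside. For the level filter, ZNF404 (mean 1.00 FPKM) was just inside and SRCIN1 (0.9995 FPKM) just outside.

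The genes that were lower with both hairpins included secreted proteins, receptors, a transcription factor and metabolic enzymes. TIMP3, a matrix-bound inhibitor of metalloproteinases, stood at 424 FPKM in the scrambled library, 23.8 FPKM in ETV1-sh1 and 21.3 FPKM in ETV1-sh2. Its differences were -4.10 and -4.25, and the smaller of them was larger than that of any other gene lower with both hairpins. HAPLN1, which links hyaluronan to proteoglycans, read 133, 14.3 and 1.06 FPKM, with the lowest level in the ETV1-sh2 library. PXDN, a peroxidase that crosslinks collagen IV, read 129, 31.8 and 10.98 FPKM. FST, the secreted activin antagonist follistatin, read 19.3, 4.18 and 2.86 FPKM. TCN1, a vitamin B12 binding protein, read 80.3, 15.6 and 6.38 FPKM. In each of these the control library was highest and ETV1-sh2 lowest, and for TIMP3 the knockdown libraries nearly coincided.

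Among receptors, ERBB3, the neuregulin receptor of the melanocyte lineage, read 156, 38.3 and 31.3 FPKM in the scrambled, ETV1-sh1 and ETV1-sh2 libraries. FLT1, a receptor for vascular endothelial growth factor, read 16.6, 1.85 and 1.35 FPKM. TFAP2B, a transcription factor of the AP-2 family, read 32.1, 4.03 and 2.68 FPKM. In these 3 genes both knockdown libraries lay close together, far below the control. Transport and metabolism were represented by SLC26A2, a sulphate transporter, at 174, 13.5 and 15.9 FPKM. PSAT1, which catalyses a step of serine synthesis, read 30.1, 6.36 and 5.79 FPKM. CA9, a carbonic anhydrase induced by hypoxia, read 5.44, 0.0498 and 0.277 FPKM, so that both knockdown values were near the floor. FXYD3, a regulator of the sodium pump, read 97.1, 16.3 and 24.4 FPKM. Of the remaining named genes, ART3, an ADP-ribosyltransferase family member, read 43.4, 3.91 and 2.27 FPKM and HMMR, a hyaluronan receptor that is also a spindle protein, read 16.7, 2.48 and 1.32 FPKM. Over all 183 genes the median differences were -1.36 (ETV1-sh1) and -1.59 (ETV1-sh2), and 122 lay lower with ETV1-sh2.

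**Figure D1:**
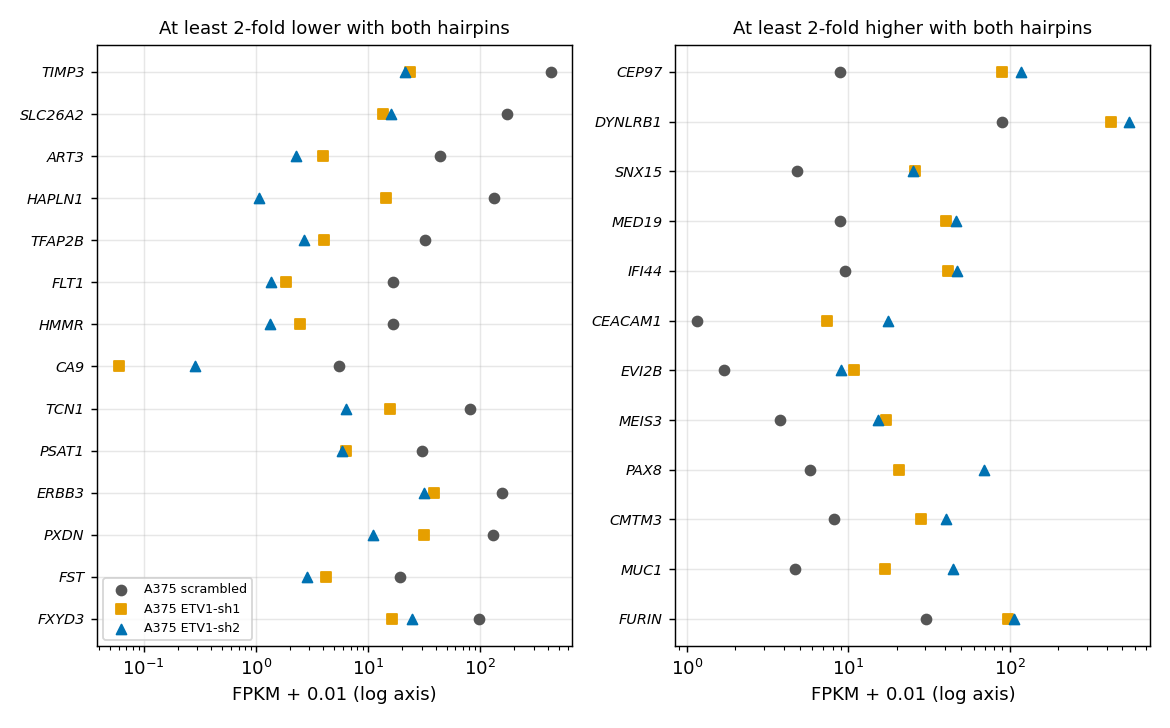
FPKM + 0.01 on a log axis (horizontal) of the genes named as shared in each direction (vertical), with 1 point per A375 library: circle, scrambled; square, ETV1-sh1; triangle, ETV1-sh2. In every row both knockdown points lie on the same side of the control, as the choice of genes requires, and HAPLN1 and PAX8 show the 2 hairpins far apart.

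The genes higher with both hairpins included proteins of the cytoskeleton, transcription and membrane traffic. CEP97, which restrains the formation of cilia, stood at 8.84 FPKM in the scrambled library, 89.6 FPKM in ETV1-sh1 and 117 FPKM in ETV1-sh2. DYNLRB1, a light chain of cytoplasmic dynein, read 89.5, 422 and 549 FPKM. MED19, a subunit of the Mediator complex, read 8.83, 40.5 and 46.7 FPKM. These 3 genes showed similar levels in the knockdown libraries, well above the control. SNX15, a sorting nexin of the endosome, read 4.796, 26.0 and 25.1 FPKM, and FURIN, a proprotein convertase of the secretory pathway, 30.4, 97.4 and 106 FPKM. The homeobox factor MEIS3 read 3.76, 17.02 and 15.3 FPKM.

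A further group was higher with ETV1-sh2 than with ETV1-sh1. PAX8, a paired-box transcription factor, read 5.78, 20.7 and 69.3 FPKM in the scrambled, ETV1-sh1 and ETV1-sh2 libraries. MUC1, a membrane mucin, read 4.65, 16.98 and 44.6 FPKM. CEACAM1, an adhesion molecule, read 1.14, 7.36 and 17.7 FPKM. In all 3 the order of the libraries was scrambled, ETV1-sh1, ETV1-sh2. CMTM3, a MARVEL-domain membrane protein, read 8.10, 28.1 and 40.3 FPKM. IFI44, an interferon-induced gene, read 9.56, 41.3 and 47.2 FPKM, and EVI2B, a membrane protein gene slightly higher with ETV1-sh1, 1.70, 10.9 and 9.02 FPKM. Over all 106 genes the median differences were 1.27 (ETV1-sh1) and 1.49 (ETV1-sh2), and 74 lay higher with ETV1-sh2.

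Named pathways were then read through 46 gene lists, of which 848 member genes were compared. List counts below stand beside the shares of all genes compared, 3.96% lower and 2.83% higher with ETV1-sh1. For ETV1-sh2 these shares were 8.42% and 7.27%, and for both hairpins 1.66% and 0.962%. Among 17 ETS factors, ETV1 was the one gene lower with both hairpins. With ETV1 itself, the knockdown target, counted in, ETV1-sh1 had 3 members at least 2-fold lower and ETV1-sh2 had 8, with none higher. ELK3, a ternary complex factor that answers to ERK, read 57.2, 54.6 and 10.96 FPKM, and ETV6, a repressor of the family, 15.9, 13.03 and 4.55 FPKM. ETS1 read 32.1, 55.4 and 14.7 FPKM, above the control with ETV1-sh1 and below it with ETV1-sh2. The ETV1-sh2 difference of ETS1 lay at the threshold, at -1.08, and just short of it after rescaling to TPM, at -0.998. The list's median was -0.07 with ETV1-sh1, 0.01 after that rescaling, and -0.88 with ETV1-sh2.

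Feedback inhibitors of the ERK pathway, the dual-specificity phosphatases, Sprouty and SPRED proteins with IER3, numbered 10, of which none was past 2-fold with ETV1-sh1 and 3 were lower with ETV1-sh2. DUSP4 read 141, 101 and 45.8 FPKM in the scrambled, ETV1-sh1 and ETV1-sh2 libraries, SPRY4 228, 290 and 86.6 FPKM, and SPRY1 3.29, 2.59 and 0.273 FPKM. DUSP6, often read as an ERK reporter, was at 201, 166 and 118 FPKM, short of 2-fold with either hairpin. Trametinib, a MEK inhibitor, is the drug that the labels give for ETV1-sh2, and its part in these values was not tested. Of 23 other ERK output genes, ETV1-sh1 had 4 lower and none higher, ETV1-sh2 had 9 lower and 2 higher, and 3 were lower with both. The 2 higher with ETV1-sh2 were EGR1, an immediate early transcription factor, at 83.3, 52.1 and 278 FPKM and AREG, a ligand of the EGF receptor, at 0.329, 1.01 and 2.94 FPKM. Those lower with both were MYC, the growth-promoting transcription factor, at 14.8, 6.38 and 1.76 FPKM, TFAP4 at 9.07, 2.07 and 3.23 FPKM and HMGA2, a chromatin protein, at 779, 318 and 284 FPKM. CCND1, cyclin D1, read 411, 207 and 76.8 FPKM, with a difference of -0.98 with ETV1-sh1 that fell just short of the threshold and of -2.40 with ETV1-sh2. The 21 core components of the pathway had 1 gene past 2-fold with ETV1-sh1, higher, and none with ETV1-sh2.

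Genes of cell division lay below the control, further with ETV1-sh2 than with ETV1-sh1 in 33 of 34 mitosis genes. Of the 34 mitosis genes, ETV1-sh1 had 11 at least 2-fold lower and ETV1-sh2 had 32, which included those 11. None was higher. The list's median differences were -0.75 (ETV1-sh1) and -2.34 (ETV1-sh2), beside -0.02 and 0.05 for all genes. TOP2A, which untangles DNA before chromosomes separate, read 25.5, 6.48 and 1.52 FPKM. CDC20, an activator of the anaphase-promoting complex, read 50.1, 17.9 and 4.32 FPKM, and the spindle motor KIF20A 22.6, 9.67 and 1.23 FPKM. All 3 were highest in the control and lowest with ETV1-sh2. Of 31 DNA replication genes, 5 were lower with ETV1-sh1, 16 with ETV1-sh2 and 3 with both, and none was higher. Those 3 were RRM2, a subunit of ribonucleotide reductase, at 137, 37.0 and 6.14 FPKM, the replication initiator MCM10 at 9.54, 3.05 and 0.286 FPKM and UHRF1, which maintains DNA methylation, at 11.9, 3.98 and 0.868 FPKM. TYMS, thymidylate synthase, read 46.8, 27.9 and 2.36 FPKM, so most of its difference lay in the ETV1-sh2 library. In bulk libraries such as these, fewer cells of a kind and less RNA per cell cannot be told apart.

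Among 20 regulators of the G1 phase, CDKN1C, a CDK inhibitor, was lower with both hairpins, at 14.9, 6.55 and 2.16 FPKM. CDK2 read 41.5, 60.7 and 11.04 FPKM and CDC25A, a phosphatase that activates CDKs, 17.3, 11.8 and 5.34 FPKM. These 2 genes were past 2-fold with ETV1-sh2 alone. The 13 clustered histone genes compared had 1 member lower with ETV1-sh1 and 1 higher with ETV1-sh2. Histone transcripts mostly lack poly(A) tails and come from near-identical copies, so their values are uncertain.

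**Figure D2:**
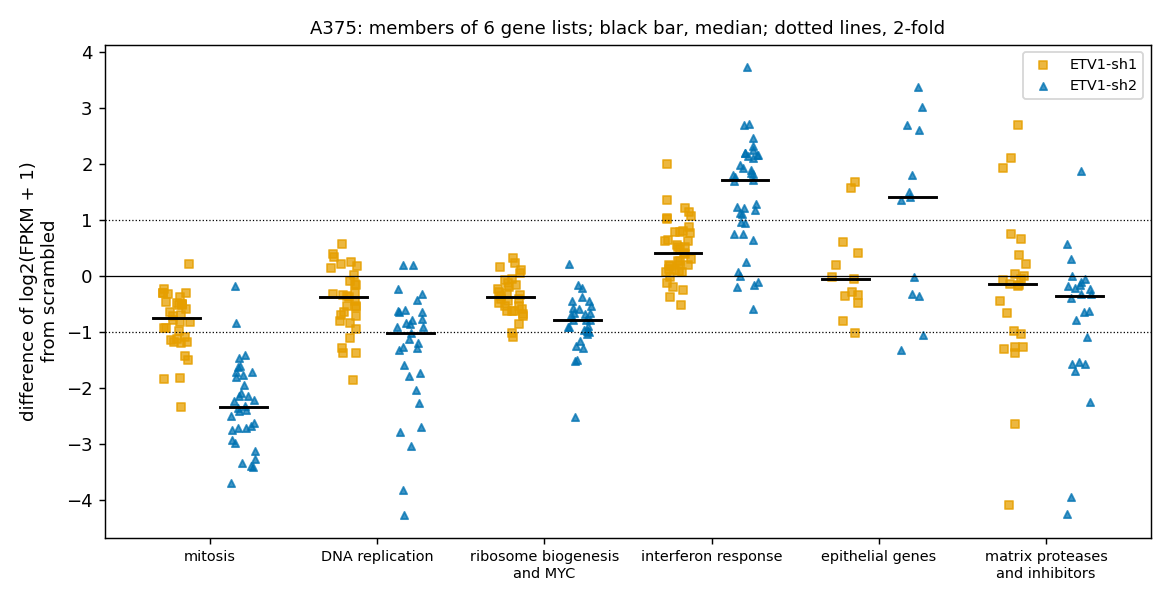
Differences of log2(FPKM + 1) from the scrambled library (vertical) for each compared member of 6 lists (horizontal), with ETV1-sh1 as squares, ETV1-sh2 as triangles, a black bar at the median and dotted lines at 2-fold. The mitosis medians lie at -0.75 and -2.34 and the interferon medians at 0.40 and 1.71; the sideways spread of points within a column has no meaning.

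Genes of ribosome biogenesis, with MYC and some of its known targets, stood below the control in most cases. Of 30, 25 had a negative difference for ETV1-sh1 and 29 for ETV1-sh2. The medians were -0.39 and -0.79, and 2 and 8 genes were past 2-fold, with none higher. MYC and NOP56, a core protein of small nucleolar particles, were lower with both hairpins. NOP56 read 213, 104 and 88.7 FPKM, and its ETV1-sh1 difference of -1.03 became -0.97 after rescaling to TPM. LDHA, lactate dehydrogenase A, read 439, 271 and 152 FPKM, past 2-fold with ETV1-sh2 alone. The 36 cytosolic ribosomal protein genes, many with near-identical copies, had medians of 0.11 (ETV1-sh1) and -0.31 (ETV1-sh2), and 1 was past 2-fold.

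Enzymes of serine synthesis and one-carbon metabolism numbered 20, of which 3 were lower with both hairpins and none was higher with both. Beside PSAT1 these were PHGDH, the first enzyme of serine synthesis, at 36.8, 17.4 and 15.4 FPKM and SLC1A4, a neutral amino acid transporter, at 19.8, 5.5998 and 7.79 FPKM. PSPH, the last enzyme of the same route, read 27.4, 16.7 and 32.1 FPKM and was not past 2-fold with either hairpin. The 27 genes of the integrated stress response had 2 lower with both. They were DDIT4, an inhibitor of mTORC1, at 91.4, 34.0 and 17.7 FPKM and ATF3, a stress-induced transcription factor, at 63.2, 19.9 and 30.5 FPKM. ATF3 reached -1.02 with ETV1-sh2 and -0.93 after rescaling to TPM.

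In glycolysis, 23 genes were compared and the members past 2-fold went in different directions. HK2, hexokinase 2, was lower with both hairpins at 17.3, 4.70 and 7.94 FPKM, although its ETV1-sh2 difference of -1.03 became -0.97 after rescaling to TPM. SLC2A3, a glucose transporter, was higher with both at 12.2, 39.6 and 27.8 FPKM. Among 18 hypoxia targets, CA9 and VEGFA were lower with both hairpins, VEGFA, the angiogenic growth factor, at 41.5, 18.4 and 17.2 FPKM. EPAS1, a hypoxia-inducible factor, read 3.48, 3.68 and 23.8 FPKM, high in the ETV1-sh2 library alone. The 26 genes of oxidative phosphorylation and 19 of cholesterol synthesis had no member past 2-fold with both.

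Interferon-stimulated genes had the highest median of the 46 lists with ETV1-sh2. Of 39 compared, ETV1-sh1 had 7 at least 2-fold higher and ETV1-sh2 had 27, which included those 7, and none was lower. Of the 40 in the table, 32 reached 1 FPKM in the scrambled library, 36 in ETV1-sh1 and 40 in ETV1-sh2. Members under 1 FPKM in the control, such as IFIT1, passed the level filter only through the knockdown libraries. They could be called higher but not lower, which raises the counts and medians given here. The medians were 0.40 and 1.71, beside -0.02 and 0.05 for all genes. IFI44, described above, stood at nearly the same level with both hairpins. OAS2, which makes the messenger that activates RNase L, read 2.997, 9.22 and 25.2 FPKM in the scrambled, ETV1-sh1 and ETV1-sh2 libraries. IFIT1, which binds foreign RNA ends, read 0.601, 1.46 and 20.2 FPKM, and MX1, an antiviral GTPase, 3.80, 7.24 and 29.9 FPKM. In these 3 genes the ETV1-sh2 library was far the highest. IRF9, a DNA-binding subunit of the complex that interferon activates, read 10.8, 23.1 and 37.6 FPKM. IRF9 was added to the genes chosen by rule after its values were seen. Every library, the control included, carried a virally delivered hairpin, and the part of the vector or of the drug labels in these values was not tested.

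Promoters were searched for 3 motifs, on both strands, in the 250 bases before and 50 after the RefSeq starts (GRCh38.p14) that 9017 of the 11015 compared genes matched. A gene was counted when any of its listed starts held a match. The interferon-stimulated response element, written GAAANNGAAA, was found in 20 of the 30 interferon genes with a promoter (66.7%), beside 3.93% of all 9017. The list was chosen as interferon-stimulated genes, so its share describes the list and is not a result of these libraries. Among genes higher with both hairpins the element was in 7 of 78 (8.97%), and among those lower with both in 3 of 143 (2.10%). The genes higher with both include 7 members of the interferon list, so these shares are not separate. Windows are shown for IFIT1 and MX1, far highest with ETV1-sh2, and for IFI44, high with both. Among the list's genes with the largest differences, these had a match before a start. OAS2, also among them, gave no such window. Capitals mark the element, read here on the opposite strand, and each window lies upstream of a start on the + strand, at chr10:89392467-89392569, chr1:78649731-78649820 and chr21:41431814-41431903.
IFIT1: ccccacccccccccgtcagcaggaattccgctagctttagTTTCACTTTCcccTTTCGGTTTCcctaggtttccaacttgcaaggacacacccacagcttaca
IFI44: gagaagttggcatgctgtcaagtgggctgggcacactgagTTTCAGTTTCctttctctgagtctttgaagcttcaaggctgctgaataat
MX1: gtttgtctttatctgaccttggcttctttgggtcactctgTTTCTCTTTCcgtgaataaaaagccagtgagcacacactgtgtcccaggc

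The ETS core CCGGAAGT was in 10.1% of all 9017 promoters, in 9 of 143 genes lower with both hairpins (6.29%), in 2 of 78 higher with both (2.56%) and in 0 of 30 interferon genes. The shorter PEA3 letters AGGAAG, which cannot overlap this ETS core but can share a base with the interferon element, were in 40.02% of all, 50 of 143 lower (35.0%), 33 of 78 higher (42.3%) and 14 of 30 interferon genes (46.7%). These shares were not tested against each other. A match is a run of letters and not a measured binding site. The windows below, both upstream of a start on the - strand, are shown as the named gene with an ETS core, MEIS3 (chr19:47419597-47419684, higher with both hairpins), and a receptor gene with 2 PEA3 matches, FLT1 (chr13:28495136-28495297, lower with both). Capitals mark the matches.
MEIS3: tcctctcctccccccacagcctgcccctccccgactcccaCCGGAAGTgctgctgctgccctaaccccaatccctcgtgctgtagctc
FLT1: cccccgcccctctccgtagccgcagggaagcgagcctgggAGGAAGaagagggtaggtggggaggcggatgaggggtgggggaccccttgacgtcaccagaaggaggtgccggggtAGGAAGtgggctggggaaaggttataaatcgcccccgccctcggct

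Proteases of the matrix and their inhibitors gave 24 compared genes, of which 5 were lower with both hairpins and 1 was higher with both. The 5 lower genes were TIMP3, PLAT, SERPINE2, MMP15 and MMP16. PLAT, the tissue plasminogen activator, read 239, 95.6 and 14.4 FPKM, and SERPINE2, a serpin that inhibits thrombin and plasminogen activators, 6551, 1046 and 2193 FPKM. Both the activator and this inhibitor were thus lower. The membrane-type metalloproteinases MMP15 and MMP16 read 11.99, 4.40 and 3.37 FPKM and 63.9, 23.8 and 19.0 FPKM. Of 28 matrix proteins, THBS1, thrombospondin 1, and LOXL4, a lysyl oxidase, were lower with both, at 464, 121 and 151 FPKM and at 128, 20.9 and 59.0 FPKM. FN1, fibronectin, read 40.8, 78.5 and 6.24 FPKM, above the control with ETV1-sh1 and below it with ETV1-sh2. The medians of the matrix proteins had opposite signs, 0.17 for ETV1-sh1 and -0.82 for ETV1-sh2.

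Among 22 integrins and adhesion molecules, ITGB3, the integrin beta 3 subunit, was lower with both hairpins, at 104, 50.6 and 20.4 FPKM. Its ETV1-sh1 difference of -1.03 became -0.98 after rescaling to TPM. Of 20 NF-kB and cytokine genes, 2 were lower with both and none was higher with either hairpin. They were BIRC3, an inhibitor of apoptosis and NF-kB target, at 21.6, 7.08 and 2.36 FPKM and the cytokine IL1B at 23.0, 3.61 and 7.72 FPKM. IL1A read 89.2, 51.6 and 12.1 FPKM and the chemokine CXCL1 7.29, 11.97 and 0.936 FPKM, both past 2-fold with ETV1-sh2 alone. In the TGF-beta and BMP list, 3 of 26 were lower with both hairpins and none was higher. Beside FST these were BMP7, a ligand, at 10.1, 3.28 and 1.13 FPKM and BAMBI, a decoy receptor, at 27.8, 7.94 and 6.27 FPKM. In the Hippo list of 23, AMOT, a binding partner of YAP, was lower with both at 12.1, 5.12 and 2.25 FPKM. TEAD3, a partner transcription factor of YAP, was higher with both at 8.18, 21.5 and 17.8 FPKM, though its ETV1-sh2 difference of 1.04 became 0.98 after centring on the median gene. YAP1 itself read 38.2, 52.8 and 7.68 FPKM.

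**Figure D3:**
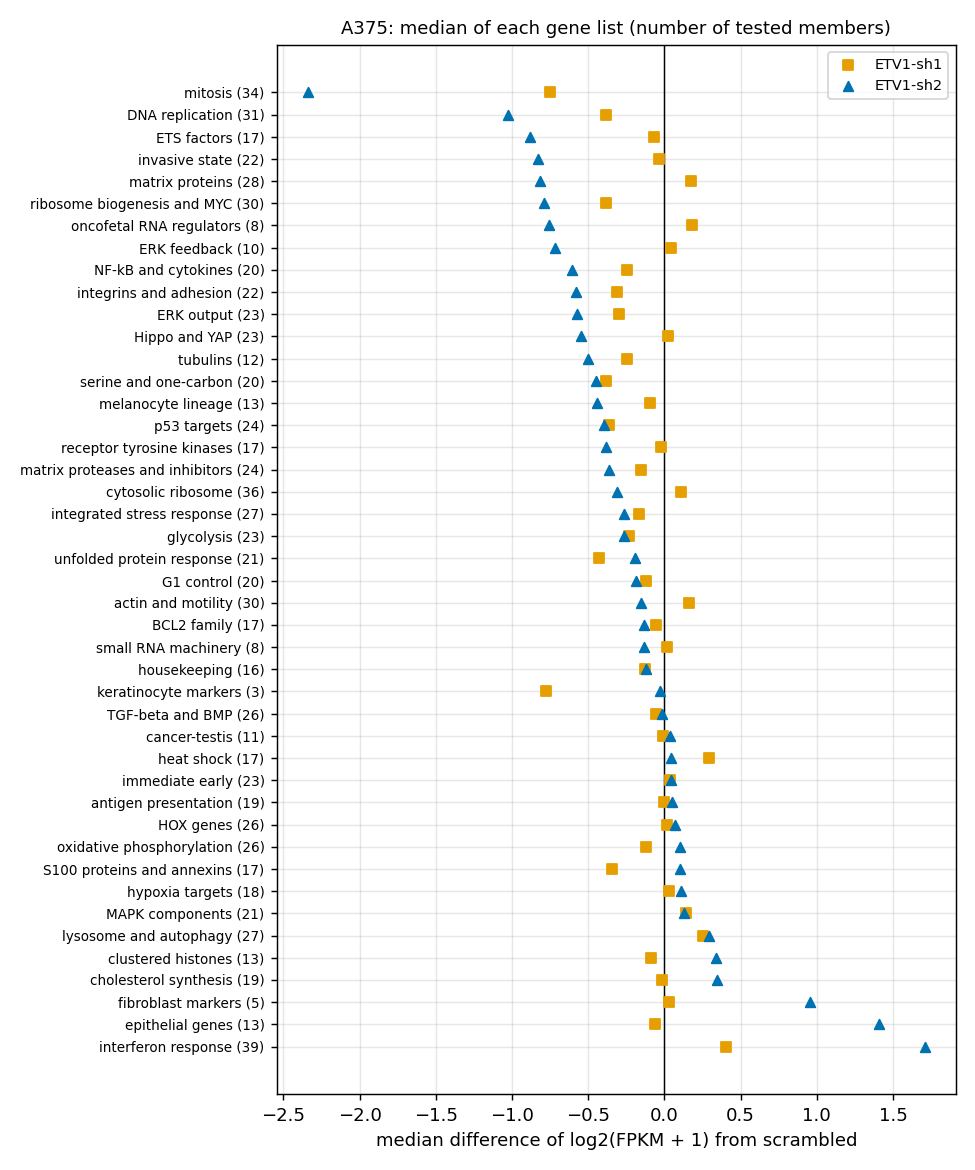
Median difference of log2(FPKM + 1) from the scrambled library (horizontal) for each list with at least 3 compared members (vertical, number of members in brackets), with ETV1-sh1 as squares and ETV1-sh2 as triangles. The ETV1-sh2 medians run from -2.34 (mitosis) to 1.71 (interferon response), and the ETV1-sh1 medians mostly lie nearer to 0.

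The 13 compared genes of the melanocyte list were mixed with ETV1-sh1, where 2 were lower and 2 higher, with a median of -0.10. With ETV1-sh2, 6 were lower and 1 was higher, with a median of -0.44. ERBB3 and S100B were lower with both hairpins, S100B, a calcium-binding marker of melanocytes and glia, at 118, 39.4 and 51.5 FPKM. MYO5A, the motor that carries melanosomes, read 30.2, 18.03 and 10.97 FPKM. Of 22 genes of the invasive, neural crest-like melanoma state, 3 were lower with both (SOX2, THBS1 and BIRC3) and 1 was higher with both. SOX2, a stem cell factor, read 7.18, 2.06 and 0.585 FPKM. The receptor NGFR read 15.4, 7.32 and 2.77 FPKM and MET, the receptor of hepatocyte growth factor, 35.2, 30.9 and 7.84 FPKM. DDR1, a collagen receptor, went the other way, at 96.4, 140 and 216 FPKM. All 3 receptors were past 2-fold with ETV1-sh2 and short of it with ETV1-sh1, where NGFR, at -0.98, was just short.

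Epithelial genes split between the hairpins. Of 30 in the table, 13 passed the level filter. With ETV1-sh1, 2 of the 13 were higher and 1 was lower, and with ETV1-sh2, 8 were higher and 2 were lower. MUC1 and LIPH, a membrane phospholipase, were higher with both, LIPH at 1.15, 5.36 and 12.8 FPKM, and OVOL1, a zinc finger factor, was lower with both at 19.1, 8.94 and 7.06 FPKM. SPINT1, an inhibitor of membrane serine proteases, read 2.54, 3.06 and 35.8 FPKM. The defining epithelial genes CDH1 and EPCAM stayed under 0.2 FPKM in all 3 libraries, with CDH1 at 0.0107, 0 and 0.0357 FPKM and EPCAM at 0.123, 0.0961 and 0.134 FPKM. The list's median with ETV1-sh2 was 1.41, and with ETV1-sh1 -0.06, which became 0.002 after rescaling to TPM.

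Markers of other cell types were low, with exceptions. The keratinocyte markers had 3 of 8 genes compared and summed to 26.2, 14.5 and 26.9 FPKM in the scrambled, ETV1-sh1 and ETV1-sh2 libraries. KRT14 was lower with both hairpins, at 9.72, 3.26 and 1.94 FPKM, while KRT1 was at 0 in all 3. SFN, at 4.55, 2.24 and 13.3 FPKM, was past 2-fold higher with ETV1-sh2. KRT10, at 11.6, 8.69 and 11.3 FPKM, was short of 2-fold with either hairpin. The fibroblast list, with 5 compared members, summed to 15.8, 18.7 and 38.0 FPKM, with COL1A1 at 1.97, 3.33 and 9.61 FPKM and THY1 under 0.04 FPKM. The endothelial list, with 2 compared members, summed to 3.56, 11.4 and 3.41 FPKM, with KDR and TIE1 past 2-fold with ETV1-sh1 and CDH5 under 0.03 FPKM. The leukocyte list, with 2 compared members, summed to 100.04, 99.1 and 326.6 FPKM. Most of it came from CD68, a lysosomal protein, at 87.5, 79.2 and 306 FPKM. The other compared member, LYZ, read 12.2, 19.8 and 20.996 FPKM. PTPRC, which defines leukocytes, was under 0.03 FPKM in all 3 libraries.

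Shared members of the stress and survival lists are counted here, beside 1.66% of all genes lower with both hairpins and 0.962% higher. Of 24 p53 targets, 2 were lower with both hairpins, GDF15, a stress-induced cytokine, at 27.5, 11.3 and 6.69 FPKM and PHLDA3, an inhibitor of AKT, at 162, 76.5 and 75.1 FPKM, and none was higher. Their medians were -0.37 and -0.40. Of 17 heat shock genes, CRYAB, a small chaperone, and HSPA1A were higher with both, CRYAB at 12.2, 37.5 and 31.3 FPKM and HSPA1A at 104, 240 and 213 FPKM. HSPA1A is nearly identical to its neighbour HSPA1B, so the split between the pair is uncertain, and its ETV1-sh2 difference of 1.02 became 0.97 after centring on the median gene. The BCL2 family with its relatives had 1 of 17 lower with both, BIRC3. Lysosome and autophagy genes had 1 of 27 higher with both, ULK1, the kinase that starts autophagy. No member was past 2-fold in the same direction with both hairpins in antigen presentation (19 compared) and the unfolded protein response (21). The same held for actin and motility (30), small RNA machinery (8), cancer-testis genes (11) and 16 housekeeping genes. DNAJB9, in the unfolded protein response list, was past 2-fold in opposite directions, at 48.1, 18.8 and 109 FPKM. The receptor kinases (17) had ERBB3, the immediate early genes (23) ATF3 and the oncofetal RNA regulators (8) HMGA2 as their 1 shared lower gene each, the tubulins (12) TUBB6, and the S100 proteins and annexins (17) had 2. The 26 HOX genes had 1 shared higher gene, HOXC6.

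The hairpins also differed from each other within A375. Of the 11015 genes compared, 85 were lower and 56 higher with ETV1-sh1 alone, the other hairpin being within 0.3 of 0 on the log2 scale. With ETV1-sh2 alone, 312 were lower and 281 higher. ETV1-sh2 had more calls in any case, 8.42% of all genes lower and 7.27% higher, beside 3.96% and 2.83% with ETV1-sh1. DBI, an acyl-CoA binding protein, read 116, 17.2 and 107 FPKM in the scrambled, ETV1-sh1 and ETV1-sh2 libraries, and PARK7, an oxidative stress protein, 311, 61.0 and 336 FPKM. GAA, the lysosomal alpha-glucosidase, read 76.0, 14.1 and 76.3 FPKM, and S1PR1, a lipid receptor, 8.88, 0.853 and 8.44 FPKM. All 4 were low in the ETV1-sh1 library alone. SERPIND1, heparin cofactor II, at 5.38, 42.4 and 4.57 FPKM, and PTBP2, a splicing regulator, at 10.0, 47.6 and 9.91 FPKM, were high there alone. C12orf75 was also lower and PRR9, TBX10 and RPL38 higher with ETV1-sh1 alone. RPL38 encodes a ribosomal protein that cells make in bulk, yet read 0.117, 3.21 and 0.112 FPKM, and it has near-identical copies, so its values are uncertain.

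SORBS2, an adaptor of the actin cytoskeleton, read 212, 255 and 7.56 FPKM in the same order, low in the ETV1-sh2 library alone. KCNN4, a calcium-activated potassium channel, read 52.9, 61.0 and 5.54 FPKM and MEOX2, a homeobox factor, 15.3, 12.4 and 0.813 FPKM. PLCB4, a phospholipase C, and SPOCK1, a proteoglycan, behaved alike, at 55.8, 49.2 and 6.40 FPKM and at 56.8, 56.3 and 6.89 FPKM. In the higher direction with ETV1-sh2 alone stood SPINT1, MAP7, a microtubule-binding protein, at 1.64, 1.52 and 15.1 FPKM, SULT1C2, HSH2D and IFI44L.

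Of the 11015 genes compared, 8 were past 2-fold lower with ETV1-sh1 and higher with ETV1-sh2, and 23 were the other way round. MAGED1, an adaptor of receptor signalling, read 81.0, 34.0 and 257 FPKM, NDN, a related MAGE family protein, 5.45, 1.11 and 16.8 FPKM, and TLCD2 2.96, 0.723 and 9.82 FPKM. MMP9, a secreted gelatinase, read 4.12, 32.1 and 0.0731 FPKM. NOX4, an oxidase that makes hydrogen peroxide, read 8.32, 34.9 and 0.309 FPKM and the integrin subunit ITGA1 70.2, 266 and 17.3 FPKM. In these last 3 genes the control lay between the knockdown libraries.

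**Figure D4:**
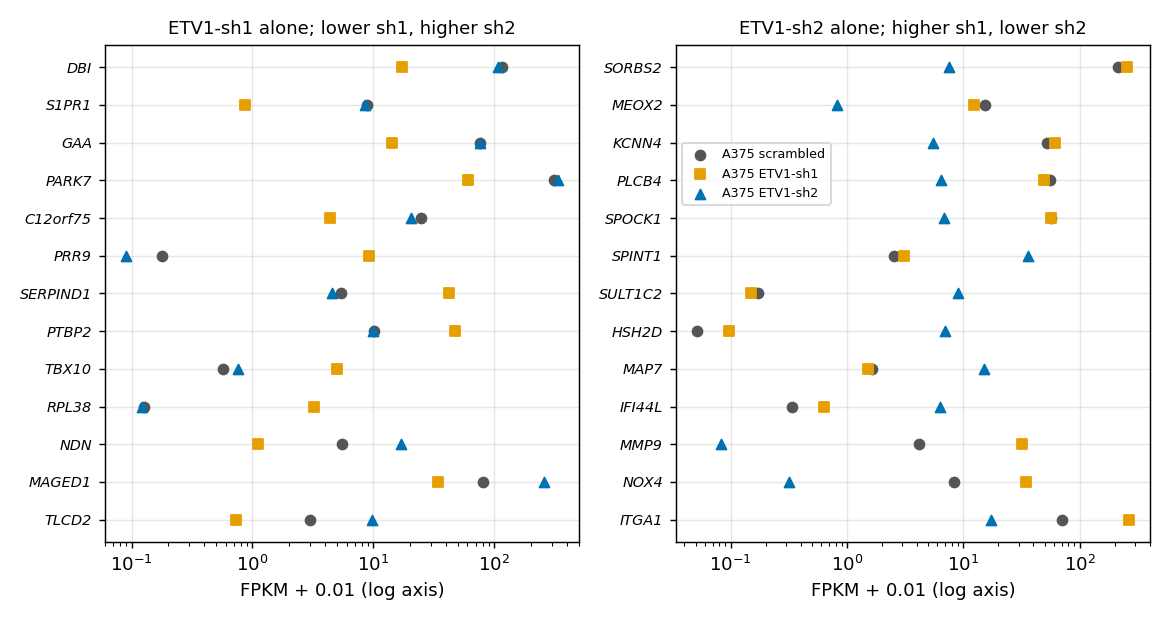
FPKM + 0.01 on a log axis (horizontal) of the genes named for 1 hairpin or for opposite changes (vertical), with 1 point per A375 library: circle, scrambled; square, ETV1-sh1; triangle, ETV1-sh2. In the left panel the square stands away from the other points in the upper 10 rows, in the right panel the triangle does, and in the last 3 rows of each panel the circle lies between them.

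As a final check, the Colo800 libraries were read for the genes chosen in A375. In Colo800, 103 genes were at least 2-fold lower with both hairpins (0.97% of 10621 compared there) and 102 were higher (0.96%). Of the 183 genes lower in A375, 158 were compared in Colo800, and 26 of them (16.5%) were also lower with both hairpins there. Of the 106 higher genes, 95 were compared and 27 (28.4%) were also higher. The lines have separate scrambled libraries, but they share hairpins and drug labels. A difference of the same sign with both Colo800 hairpins was seen for 127 of the 158 and 78 of the 95. The share of all compared genes that agree in sign in this way was not computed, so these counts have no base rate. PSAT1 read 43.4, 12.01 and 8.04 FPKM in the scrambled, ETV1-sh1 and ETV1-sh2 libraries of Colo800, TIMP3 844, 183 and 219 FPKM, and ETV1 itself 180, 54.6 and 9.80 FPKM. DYNLRB1 (121, 504 and 627 FPKM), MED19 (6.34, 27.4 and 31.0 FPKM) and FURIN (37.6, 177 and 173 FPKM) were higher with both hairpins there. CTLA4, an immune checkpoint receptor, was the 1 gene lower with both hairpins in A375 (6.55, 1.84 and 0.379 FPKM) and higher with both in Colo800 (2.85, 15.8 and 7.83 FPKM).

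Some A375 genes were barely present in Colo800. Of the 183 lower genes, 25 (13.7%) had a Colo800 mean under 1 FPKM, and of the 106 higher genes 11 (10.4%), beside 8.43% of all genes compared. HAPLN1, TFAP2B, CA9, TCN1 and PXDN were among them, with every Colo800 value under 1 FPKM. CEP97, the leading higher gene, read 159, 271 and 12.8 FPKM in Colo800, where ETV1-sh2 lay far below the control.

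Whether the knockdown effect differed between the lines was tested with limma over all 6 libraries. The fit had 2 residual degrees of freedom, and the hairpins of a line stood in for replicate libraries, of which there were none. No gene of 11129 passed an adjusted p of 0.05 (0%). At an unadjusted p under 0.05 there were 66, and the smallest adjusted p was 1. The genes with the smallest p on the lower side in A375 were CA9 (A375 minus Colo800 difference -2.88, SE 0.49), TFAP2B (-3.03, SE 0.55) and TIMP3 (-2.11, SE 0.45). On the higher side they were FBXL13 (2.36, SE 0.51), PLA1A (2.05, SE 0.46) and CRYAB (2.001, SE 0.60). FBXL13 and PLA1A were under 1 FPKM in all 3 A375 libraries, and their differences lay in Colo800. The residual spread of this fit is the difference between hairpins that left unlike levels of ETV1 and carry unlike drug labels. For the ETV1 difference the SE was 2.06. The SEs above, and the order of the genes by p, rest on that spread and not on one between replicate libraries. The count of 0 thus does not show that the lines responded alike or unlike. Nor do the 66 genes at an unadjusted p under 0.05 show a difference, being fewer than a fraction of 0.05 of the 11129 tested.

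**Figure D5:**
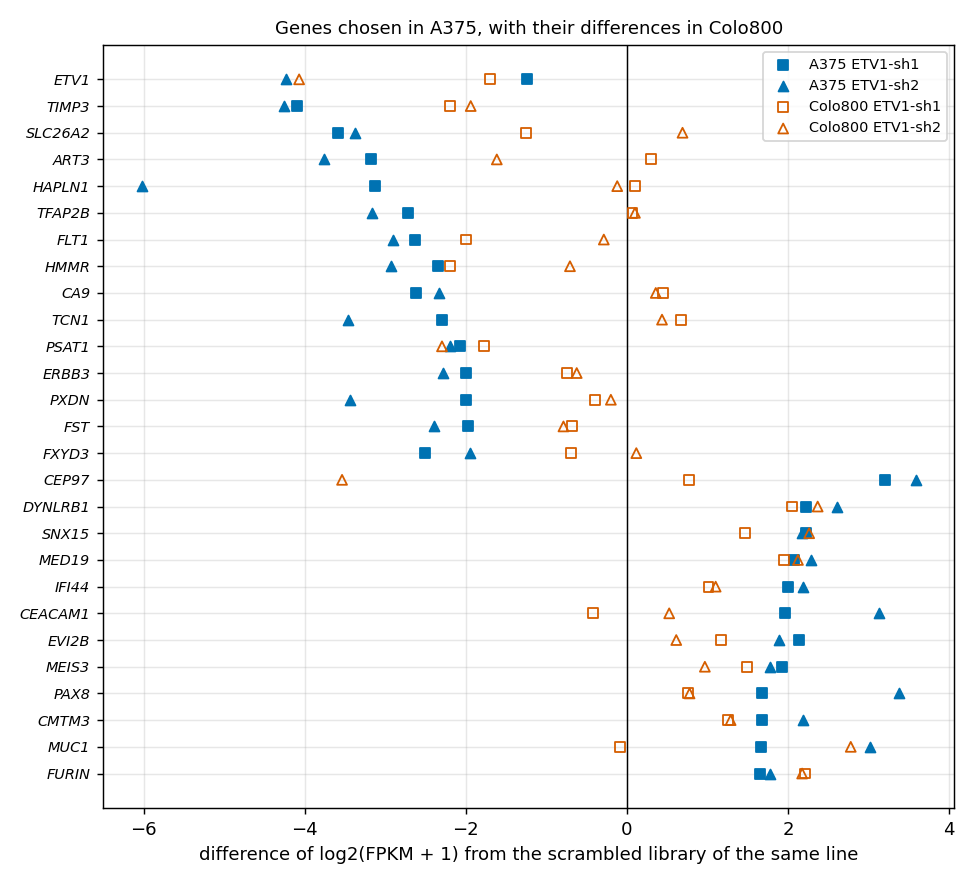
Differences of log2(FPKM + 1) from the scrambled library of the same line (horizontal) for ETV1 and the shared genes named in A375 (vertical), with filled symbols for A375, open symbols for Colo800, squares for ETV1-sh1 and triangles for ETV1-sh2. PSAT1, DYNLRB1, MED19 and FURIN lie close in the lines, whereas in Colo800, where all 4 were under 1 FPKM, HAPLN1 and TFAP2B sit near 0 and CA9 and TCN1 somewhat above it.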

How the data were processed

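The data were 1 deposited table of FPKM values per gene for 6 RNA-seq libraries, of which the 3 from A375 were used, and those from Colo800 for a final check. The authors made these FPKM values with STAR 2.4, Cufflinks 2.2.1 and Cuffnorm on hg19, per the submitters' processing notes. RNA was purified on RNeasy columns and libraries followed Illumina's standard protocol, per the labels' protocols. The unit keeps no read counts, so no count model was run and no depth-based interval is given.

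Differences of log2(FPKM + 1) from the scrambled library were computed with Python 3.11.15 and pandas 2.3.3 for genes with a mean of at least 1 FPKM over the 3 libraries. With 1 library per group no test was possible within A375. The difference between lines was tested with limma 3.58.1 in R 4.3.3 (trended variance, Benjamini-Hochberg adjustment), after a check on simulated data. Alternatives were a pseudocount of 0.1, no level filter, a mean of at least 5 FPKM, centring on the median gene, rescaling to TPM and, for the limma fit, no variance trend, hairpin as a term and each knockdown library left out.

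The rule for genes that could be named took the 14 per direction with the largest smaller difference over both hairpins, the 5 per direction for 1 hairpin alone, the 3 per direction with opposite changes, the 4 largest members per list, every member of lists under 12 compared members, and the 3 per direction with the smallest limma p. Not every list member it allows is described, and several lists are given by counts alone. Genes counted in groups of 5 or fewer, markers and those named to complete a pathway were chosen after their values were seen. Of 1046 list entries, 1023 were found in the table. The genes and lists were chosen with earlier results of these data known. A few genes that the rule or the lists would name are not reported here.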

Additional observations from a re-analysis of the deposited data

Results flagged for a closer look

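A few results moved one way with both hairpins in A375 and the other way with both in Colo800. TFAP2B had differences of -2.72 and -3.17 in A375 and of 0.07 and 0.10 in Colo800, a mean difference of -3.03 (limma adjusted p = 1), and its Colo800 levels were at most 0.0712 FPKM. CA9 had -2.62 and -2.33 in A375 and 0.44 and 0.36 in Colo800, a mean difference of -2.88 (limma adjusted p = 1), with Colo800 levels of at most 0.691 FPKM. TCN1 had -2.29 and -3.46 in A375 and 0.67 and 0.44 in Colo800, a mean difference of -3.43 (limma adjusted p = 1), with Colo800 levels of at most 0.884 FPKM.

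Among list medians, p53 targets had -0.37 and -0.40 in A375 and 0.22 and 0.24 in Colo800, a mean difference of -0.61. Heat shock genes had 0.29 and 0.04 in A375 and -0.18 and -0.15 in Colo800, a mean difference of 0.33, but the A375 median for ETV1-sh2 became -0.01 after centring on the median gene, so the opposite signs were lost. Hypoxia targets had 0.03 and 0.11 in A375 and -0.33 and -0.35 in Colo800, a mean difference of 0.41. The BCL2 family had -0.05 and -0.13 in A375 and 0.07 and 0.11 in Colo800, a mean difference of -0.18, but the A375 medians became 0.07 and 0.003 after rescaling to TPM, the same sign as in Colo800. The differences between the lines in these list medians were not tested.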

How the results depend on the processing

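Counts depended on the pseudocount and the scaling. With a pseudocount of 0.1, 514 genes were higher with ETV1-sh1 (312 with a pseudocount of 1), 226 were higher with both hairpins (106), and 98 shared genes were also changed in Colo800 (53). With rescaling to TPM, 1218 genes were higher with ETV1-sh2 (801) and 177 with both hairpins (106). The other counts stayed within 1.5 times. Of the 183 lower and 106 higher shared genes, 170 and 99 were kept by centring on the median gene and 164 and 106 by rescaling to TPM. List medians changed sign in 8 and 11 of 92 cases under these scalings, with medians between -0.13 and 0.05 before rescaling. The limma count stayed at 0 under every alternative, with 34 to 430 genes at an unadjusted p under 0.05 and a smallest adjusted p of 0.2993, reached without the level filter. Where a knockdown library was left out, the count was 0 each time, with 236 genes at an unadjusted p under 0.05 without A375 ETV1-sh1 and 105 without A375 ETV1-sh2 (66 with all libraries), and the lone library of that line was assumed to vary like the other. With the hairpin as a block across the lines, which leaves 1 residual degree of freedom, 0 genes passed, 345 had an unadjusted p under 0.05 and the smallest adjusted p was 0.6979. Every count at an unadjusted p under 0.05 given here was below a fraction of 0.05 of the genes tested. No block was possible within A375, where each hairpin had 1 library. The depth is unknown, so values near 0 FPKM have no stated precision.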
